A study of Homo sapiens with 16 samples.

Results

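The 41 genes described here encode the parts of epithelial cell junctions, the epithelial keratins and regulators of both, and they were followed through cytoplasmic and polysomal RNA of the human small cell lung cancer lines H69M and H69. The members were taken by name: 4 genes of adherens junctions and epithelial adhesion, 12 of tight junctions, 6 of desmosomes and their plakins, 4 simple-epithelial keratins, 3 basal keratins, the keratin KRT80, 6 regulators, 3 genes of a membrane protease system, and 2 of polarity and trafficking. They are 41 of the 56832 gene names in the count table, and 40 of them had enough counts to be tested. KRT14, a basal keratin, did not: it had 7 counts in H69M sheIF6 cytoplasmic library 1, 4 counts in H69M shNTC polysomal library 1 and 0 in the other libraries. The 8 groups, with 2 libraries each, were H69M sheIF6, H69M shNTC, H69 sheIF6 and H69 shNTC, each as cytoplasmic and as polysomal RNA. The sheIF6 lines carried a stable lentiviral shRNA against EIF6, which encodes an anti-association factor of the ribosome; shNTC lines carried a control shRNA and are labelled WT in genotype. All lines grew in RPMI 1640 with serum, and no drug treatment is labelled. Cytoplasmic RNA came from a hypotonic lysate made with cycloheximide, and polysomal RNA from sucrose fractions after polysome profiling. The study set sheIF6 against shNTC cells in each line; the labels used here do not say how H69M was derived.

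Epithelial cells hold together through adherens junctions, in which cadherins bind their like on the next cell, tight junctions, in which claudins and occludin seal the space between cells, and desmosomes, which anchor the keratin filaments. Keratins are made as pairs of a type I and a type II chain: KRT8 with KRT18 in simple, single-layered epithelia, and KRT5 with KRT14 in the basal layer of stratified ones. P-cadherin and KRT17 are likewise known from basal cells. Small cell lung carcinoma is a neuroendocrine tumour whose cells commonly keep simple-epithelial genes.

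Library totals ran from 36005326 to 87269772 counts, and replicates differed by 24.9 to 244 times the variance that counting alone gives. Since no label calls the 2 numbered libraries of a group separate cultures, the p-values below describe only how much these libraries spread. EIF6 stood lower in both sheIF6 libraries than in both shNTC libraries in each line and fraction, for example at 86.3 and 136 CPM (counts scaled to a common library total) in H69M sheIF6 polysomal RNA, against 323 and 202 CPM in H69M shNTC polysomal RNA. In H69M cytoplasmic RNA the groups nearly met, at 161 and 96.3 CPM in sheIF6 against 204 and 165 CPM in shNTC. In H69 cytoplasmic RNA edgeR called 0 genes under knockdown (adjusted p under 0.05), so EIF6 was not called there. Markers of the labelled cell type differed between the lines: 10 neuroendocrine genes, with CALCA at 0 in every group, summed to 138 to 617 CPM in H69M libraries and to 1871 to 3779.8 CPM in H69 libraries. Mesenchymal genes, 10 in all, summed to 17109 to 52714 CPM in H69M libraries and to 145 to 603 CPM in H69 libraries, where COL3A1 was at 0 in the sheIF6 cytoplasmic and shNTC polysomal groups. Markers of immune, endothelial, and alveolar or secretory cells summed to at most 12.1 CPM in any library. The 4 H69M libraries numbered 2 held RNA of genes typical of H69: over 37 such genes, members left out, they reached a median of 1.87% to 12.4% of the H69 level, highest in shNTC polysomal library 2, against 0.0412% to 0.771% in the 4 H69M libraries numbered 1. H69 shNTC cytoplasmic library 1 held 134 genes typical of H69M at a median of 0.404% of the H69M level, against 0.0123% to 0.102% in the other 7 H69 libraries. Members low in H69M are therefore given below by library.

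The module did not move as a block between the lines, and it did not divide into simple genes in H69 and basal genes in H69M. In control cytoplasmic RNA 12 of the 40 members were higher in H69M than in H69 and 14 were lower, and in control polysomal RNA 14 were higher and 14 lower (edgeR quasi-likelihood test, adjusted p under 0.05 over all 23100 genes tested). Over all genes, 30.2% were called in the cytoplasmic comparison (16.2% higher, 14.1% lower) and 34% in the polysomal comparison (18.4% higher, 15.6% lower), so the members' calls stand against a difference between the lines that spans the transcriptome. The members' median log2 difference was -0.86 in cytoplasmic RNA and -0.79 in polysomal RNA, where the median over all genes tested was -0.01 and 0.02. Without overlap between the libraries, 14 members stood higher and 19 lower in cytoplasmic RNA (33.5% and 34.7% of all genes), and 17 higher and 18 lower in polysomal RNA (33.1% and 31.2%). In bulk RNA of this kind fewer cells of a type and less RNA per cell cannot be told apart. Without the 4 H69M libraries numbered 2 cytoplasmic RNA gave 11 members higher and 13 lower (25.6% of all genes called), and polysomal RNA 12 and 14 (30.1%). Left out in this way, some members low in H69M lay lower still, as with CLDN3, at -4.86 against -3.59 in polysomal RNA, and F11R, at -3.18 against -2.51. The polysomal count was 17 in place of 28 without H69M shNTC polysomal library 1. Mesenchymal and neuroendocrine marker sums moved with the line as given above, and their part in these differences was not tested.

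**Figure D1:**
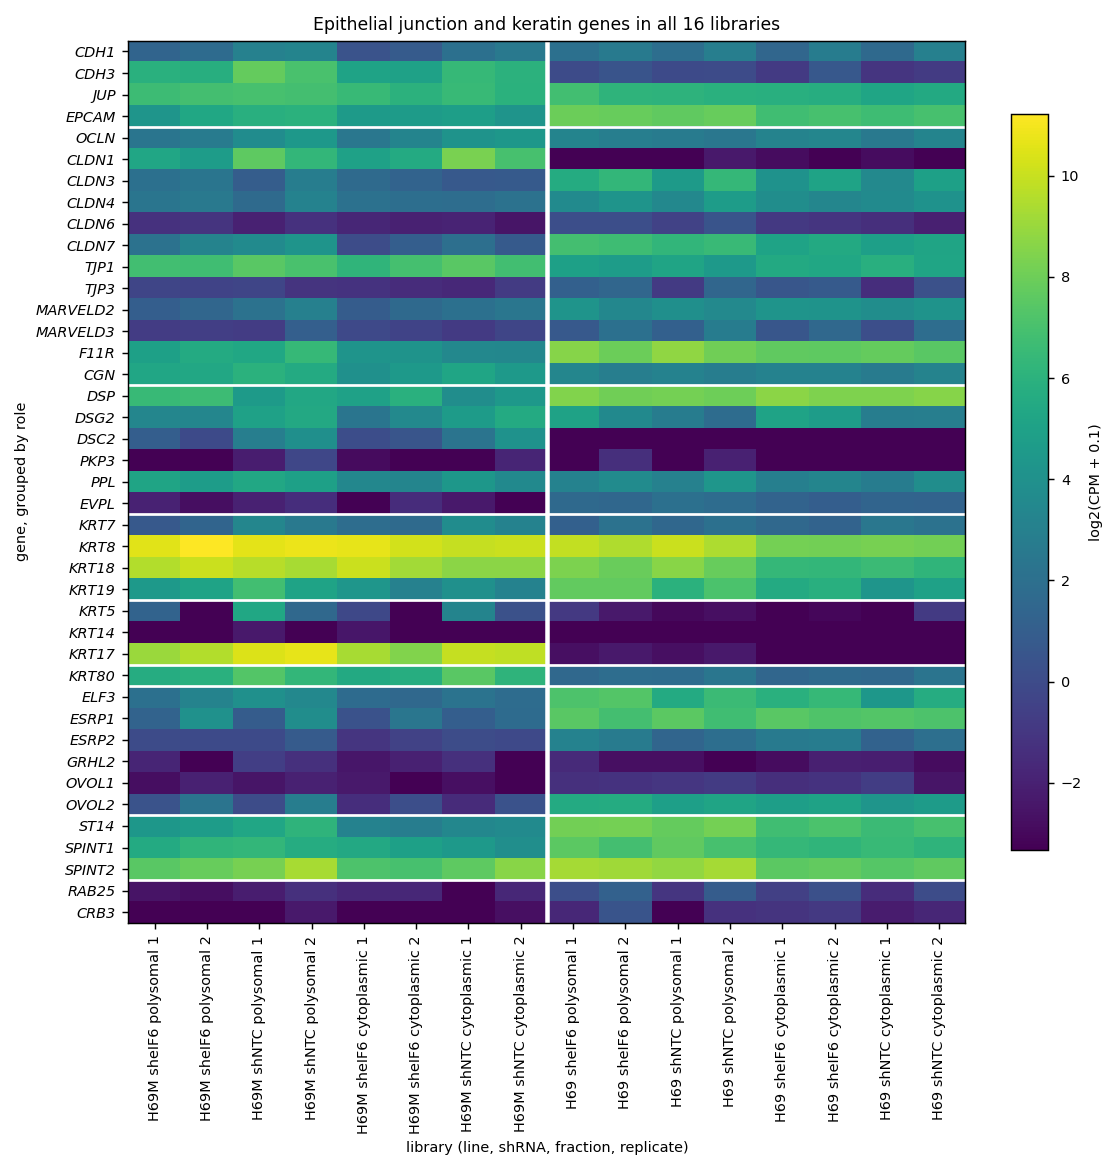
Level of each of the 41 members in each of the 16 libraries, as log2(CPM + 0.1), with rows grouped by role and the 8 H69M libraries left of the 8 H69 libraries. Genes of the same role run in opposite directions: CLDN1, KRT17, CDH3 and KRT80 are high in all 8 H69M libraries, and F11R, DSP, ESRP1 and ST14 are high in all 8 H69 libraries.

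Among the adherens junction genes the cadherins parted. CDH3 (P-cadherin, chr16:68636189-68722616, plus strand, GRCh38) stood at 84.9 and 66.1 CPM in H69M shNTC cytoplasmic RNA, against 0.371 and 0.480 CPM in H69 shNTC cytoplasmic RNA. In polysomal RNA it stood at 218 and 130 CPM in H69M, against 0.868 and 0.891 CPM in H69. The log2 difference of H69M over H69 was 7.63 in polysomal RNA (SE 0.530, edgeR adjusted p = 1.16e-06). CDH1 (E-cadherin), its neighbour on the same strand of chromosome 16, stood at 4.02 and 5.80 CPM in H69M shNTC cytoplasmic RNA, against 3.03 and 7.86 CPM in H69; the lines overlapped and the call was not made (log2 difference -0.15, SE 0.559, adjusted p = 0.877). Per kilobase of exon, CDH3 made up 91.9% to 96.6% of the summed level of both cadherins in the 8 H69M libraries, and 5.70% to 19.0% in the 8 H69 libraries. That sum was 5.31 to 36.4 RPKM (CPM per kilobase) in H69M and 0.516 to 1.35 RPKM in H69. CDH3 carried the sum in H69M, and CDH1, at 81.0% to 94.3% of it, in H69.

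EPCAM, an epithelial adhesion molecule and a common marker of carcinoma cells, went the other way. It stood at 28.1 and 18.5 CPM in H69M control cytoplasm, against 103 and 128 CPM in H69, a log2 difference of -2.31 (SE 0.311, adjusted p = 0.000137), and its polysomal difference was -1.86 (adjusted p = 0.000576). JUP (plakoglobin), which links both classical and desmosomal cadherins to the cell interior, stood at 89.3 and 63.1 CPM in H69M against 36.8 and 45.04 CPM in H69. Its log2 difference of 0.90 passed in cytoplasmic RNA (SE 0.266, adjusted p = 0.0220) and one of 0.93 in polysomal RNA (adjusted p = 0.0170). The JUP call was lost when any of 3 cytoplasmic or any of 3 polysomal control libraries was left out, down to 0.63 without H69M shNTC cytoplasmic library 1 (adjusted p = 0.189). The EPCAM and CDH3 calls held in each of 25 alternatives in both fractions.

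Of the 12 tight junction genes, 4 were higher and 5 lower in H69M in cytoplasmic RNA, and the claudins divided most. CLDN1 (chr3:190305701-190322475, minus strand), a barrier-forming claudin, stood at 315 and 125 CPM in H69M shNTC cytoplasmic RNA, against 0.0390 and 0 CPM in H69. That is 17334 counts against 2 over both libraries of each line, a ratio of 11259 with a 95% counting interval of 3116 to 92975 (edgeR adjusted p = 1.08e-05); such intervals, and the bounds below, cover counting error only. CLDN7 (chr17:7259903-7263983, minus strand), a claudin of simple epithelia, stood at 3.92 and 1.66 CPM in H69M control cytoplasm, against 29.8 and 36.0 CPM in H69. Its log2 difference was -3.56 (SE 0.481, adjusted p = 0.000144). CLDN3 stood at 1.55 and 1.63 CPM in H69M, against 11.5 and 30.2 CPM in H69 (log2 difference -3.71, adjusted p = 0.00304). CLDN4, another simple-epithelial claudin, stood at 3.62 and 4.30 CPM in H69M, against 12.6 and 17.1 CPM in H69. Its log2 difference of -1.91 passed (SE 0.499, adjusted p = 0.0115) and was lost without H69 shNTC cytoplasmic library 2 (-1.67, adjusted p = 0.0646) or without H69M shNTC cytoplasmic library 1 (-1.79, adjusted p = 0.0789). Per kilobase, CLDN1 made up 44.4% to 95.9% of the summed level of the 5 claudins in H69M libraries and at most 0.0447% in H69 libraries. CLDN3 took 1.36% to 24.0% of it in H69M and 36.6% to 60.1% in H69, and CLDN7 took 1.76% to 22.7% in H69M and 34.2% to 58.3% in H69. The summed claudin level itself overlapped between the lines, at 12.5 to 89.5 RPKM in H69M and 23.9 to 109 RPKM in H69, so the lines differed in which claudins made it up.

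The start regions of 3 members, chosen after levels and motif counts were seen, show both ends of the range that member windows span in a motif of the epithelial repressors. ZEB1 and ZEB2 are known to bind the E-box CACCTG, which on the opposite strand reads CAGGTG. ZEB2 stood at 65.8 and 51.8 CPM in H69M shNTC cytoplasmic RNA, against 0.566 and 0.140 CPM in H69 (log2 difference 7.37). ZEB1 stood at 69.4 and 71.0 CPM in H69M, against 17.5 and 11.02 CPM in H69 (log2 difference 2.30). Both passed, and they were the only 2 called of the 6 repressors of epithelial genes tested. SNAI2 stood at 66.0 and 26.2 CPM in H69M, against 39.2 and 30.7 CPM in H69, and was not called. SNAI1 (0.850 and 1.69 CPM against 1.27 and 1.90 CPM) and TWIST1 (30.0 and 37.4 CPM against 51.2 and 28.7 CPM) were not called either. The windows below run from 250 bases before to 50 bases after a start, come from RefSeq (GRCh38.p14) and are written 5′ to 3′ on the gene's strand, with every E-box of either orientation in capitals. CLDN1, higher in H69M, is shown as one of the member windows without a match (chr3:190322397-190322696, minus strand), and CLDN7 (chr17:7262429-7262728, minus strand) and CRB3 (chr19:6464021-6464320, plus strand), an apical polarity protein, as the member windows with 5 matches each. The second CLDN7 window in the table (chr17:7263164-7263463) held none.
CLDN1: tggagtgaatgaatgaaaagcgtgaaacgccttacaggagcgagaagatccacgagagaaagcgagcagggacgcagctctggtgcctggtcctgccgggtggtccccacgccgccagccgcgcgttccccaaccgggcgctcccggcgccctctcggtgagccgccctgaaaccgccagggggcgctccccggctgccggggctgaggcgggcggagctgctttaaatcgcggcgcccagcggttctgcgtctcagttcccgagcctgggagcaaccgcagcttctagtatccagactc
CLDN7: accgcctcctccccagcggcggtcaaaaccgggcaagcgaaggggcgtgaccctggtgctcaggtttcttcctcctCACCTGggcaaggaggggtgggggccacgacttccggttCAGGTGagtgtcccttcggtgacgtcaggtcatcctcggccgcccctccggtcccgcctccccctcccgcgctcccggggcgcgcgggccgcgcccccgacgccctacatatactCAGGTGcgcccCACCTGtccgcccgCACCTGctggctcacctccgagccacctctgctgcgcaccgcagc
CRB3: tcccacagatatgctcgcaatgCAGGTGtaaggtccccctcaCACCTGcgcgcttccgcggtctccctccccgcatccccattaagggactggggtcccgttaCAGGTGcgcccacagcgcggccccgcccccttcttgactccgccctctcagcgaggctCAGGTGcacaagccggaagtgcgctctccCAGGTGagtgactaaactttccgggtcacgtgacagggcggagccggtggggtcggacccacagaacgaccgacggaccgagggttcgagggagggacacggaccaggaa
The promoter table held windows for 20 of the 41 members, 29 windows in all. Of these, 16 held at least 1 match, and 20.6% of all 35116 windows in the table did. Windows with 5 or more matches numbered 33 in the table (0.094%). Matches were not limited to members lower in H69M: both windows of OCLN and that of DSG2, which were higher there, held 1 or 2, DSC2, also higher, had 1 window with a match and 1 without, and the windows of CLDN4 and MARVELD2, which were lower, held none. A match is a run of letters and says nothing about binding in these cells.

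Other tight junction genes were also called in both directions, F11R and MARVELD2 lower and TJP1, CGN and OCLN higher in H69M. F11R (junctional adhesion molecule A), an adhesion protein of the membrane, stood at 11.1 and 10.5 CPM in H69M control cytoplasm, against 218 and 183 CPM in H69 (log2 difference -4.21, SE 0.407, adjusted p = 1.26e-05). MARVELD2 (tricellulin), which sits where 3 cells meet, stood at 4.02 and 5.22 CPM in H69M, against 13.7 and 17.4 CPM in H69 (-1.75, adjusted p = 0.00620; -1.57 and adjusted p = 0.0584 without H69M shNTC cytoplasmic library 1). Its polysomal call (-1.11, adjusted p = 0.0496) was lost in 15 of 25 alternatives. Of the scaffold genes of the inner face of the junction, TJP1 and CGN were called higher in H69M and TJP3 was not called. TJP1 (ZO-1) stood at 178 and 114 CPM in H69M control cytoplasm, against 57.8 and 38.1 CPM in H69 (log2 difference 1.61, SE 0.336, adjusted p = 0.00300). CGN (cingulin) stood at 37.4 and 23.6 CPM in H69M, against 6.44 and 8.82 CPM in H69 (log2 difference 2.00, SE 0.307, adjusted p = 0.000360). OCLN (occludin) stood at 17.3 and 20.8 CPM in H69M, against 5.78 and 9.32 CPM in H69, and its difference of 1.34 passed (SE 0.376, adjusted p = 0.0168). It was not called without the 4 H69M libraries numbered 2 (1.20, adjusted p = 0.0508), and in the sheIF6 libraries OCLN lay the other way round (log2 difference -0.39 in cytoplasmic and -0.59 in polysomal RNA). The remaining members were low: TJP3, MARVELD3 and CLDN6 reached at most 2.66, 6.71 and 1.26 CPM in any library and were not called in cytoplasmic RNA. MARVELD3 was lower in H69M with the replicate number as a block (-1.74, adjusted p = 0.0255), a fit that called 37.5% of all genes in cytoplasmic and 41.6% in polysomal RNA, and CLDN6 was lower in polysomal RNA without the block (-1.97, adjusted p = 0.0489; 0.0544 with it), a call lost in 21 of 24 alternatives.

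Desmosomal genes were also split between the lines. DSP (desmoplakin, chr6:7541575-7586717, plus strand), which ties the desmosome to keratin, stood at 14.1 and 21.3 CPM in H69M shNTC cytoplasmic RNA, against 335 and 376 CPM in H69. In polysomal RNA it stood at 24.6 and 41.6 CPM in H69M, against 285 and 261 CPM in H69, and the log2 difference there was -3.05 (SE 0.353, adjusted p = 4.49e-05). Desmosomal cadherins were higher in H69M. DSG2 (desmoglein 2, chr18:31498043-31549008, plus strand) stood at 25.1 and 46.9 CPM in H69M control cytoplasm, against 7.03 and 7.26 CPM in H69, a log2 difference of 2.33 (SE 0.536, adjusted p = 0.00551). DSC2 (desmocollin 2, chr18:31058840-31102522, minus strand) stood at 4.67 and 17.0 CPM in H69M, and no count fell on it in any of the 8 H69 libraries. Over both H69M control cytoplasmic libraries it had 831 counts against 0, at least 360-fold higher when 3 counts are set for the H69 group, and in polysomal RNA 894 against 0, at least 295-fold higher (adjusted p = 0.000264 and 0.000304). The DSG2 call did not hold in every alternative: its cytoplasmic difference was 1.81 (adjusted p = 0.0559) without the H69M libraries numbered 2, and in sheIF6 libraries it was -1.88 (adjusted p = 0.0163). Reads of DSG2 and DSC2 cannot be told from those of the antisense genes DSG2-AS1 and DSCAS, since the library kit does not mark strand.

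The plakins of the cornified envelope parted as well. EVPL (envoplakin) stood at 0.09995 and 0 CPM in H69M control cytoplasm, against 2.50 and 2.40 CPM in H69 (log2 difference -5.52, SE 1.33, adjusted p = 0.00712). PPL (periplakin), its partner, stood at 41.5 and 30.6 CPM in H69M polysomal RNA, against 8.23 and 20.2 CPM in H69, and was called there (1.34, adjusted p = 0.0380) but not in cytoplasmic RNA (0.61, adjusted p = 0.344). The polysomal PPL call was lost in 9 of 25 alternatives. PKP3, a plakophilin of the desmosomal plaque, reached at most 0.755 CPM in any library and was not called.

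In control cytoplasmic RNA 2 of the 4 simple keratins and 1 of the 3 basal keratins were called higher in H69M. KRT17 (chr17:41619441-41624842, minus strand), a basal keratin, stood at 989 and 927 CPM in H69M shNTC cytoplasmic RNA and had 0 counts in the H69 libraries of that group: 74748 counts against 0, at least 32367-fold higher (adjusted p = 3.85e-07). KRT8 (chr12:52897187-52949954, minus strand), the type II keratin of simple epithelia, stood at 992 and 1050.5 CPM in H69M, against 302 and 276 CPM in H69. Its log2 difference was 1.82 (SE 0.288, adjusted p = 0.000444). KRT18 (chr12:52948871-52952901, plus strand), its type I partner, stood at 417 and 414 CPM in H69M, against 97.7 and 72.1 CPM in H69 (log2 difference 2.29, SE 0.345, adjusted p = 0.000310). In polysomal RNA both differences were smaller, 0.95 for KRT8 (adjusted p = 0.0206) and 1.19 for KRT18 (adjusted p = 0.0156), and each lost its call when H69 shNTC polysomal library 2 was left out (0.68 with adjusted p = 0.168, and 0.85 with adjusted p = 0.135). KRT80, a type II keratin of several epithelia, stood at 183 and 71.1 CPM in H69M control cytoplasm, against 2.91 and 4.68 CPM in H69 (5.06, SE 0.501, adjusted p = 1.43e-05).

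Other keratins of either kind did not follow. KRT19, a simple type I keratin, stood at 15.8 and 8.54 CPM in H69M control cytoplasm, against 19.3 and 32.5 CPM in H69, and was not called in either fraction of the control libraries (-1.08, adjusted p = 0.188, and -0.47, adjusted p = 0.562). Taken from the sheIF6 libraries, KRT19 was called lower in H69M in cytoplasmic (-1.90, edgeR adjusted p = 0.0295) and polysomal RNA (-2.88, adjusted p = 0.00373). KRT7, another simple keratin, stood at 13.5 and 8.70 CPM in H69M, against 5.27 and 4.44 CPM in H69 (1.20, adjusted p = 0.0685); its polysomal difference of 1.20 had an adjusted p of 0.0628, and passed with the block (1.19, adjusted p = 0.0462). KRT5, the basal type II keratin, depended on the library. It stood at 40.7 and 2.87 CPM in H69M shNTC polysomal RNA, against 0.0263 and 0.0495 CPM in H69: 1728 counts against 3, a ratio of 569 with a counting interval of 194 to 2763 (adjusted p = 0.0353). The KRT5 call was lost in 10 of 25 alternatives, among them without H69M shNTC polysomal library 1 (adjusted p = 0.157). In cytoplasmic RNA KRT5 stood at 9.35 and 1.11 CPM in H69M, against 0 and 0.460 CPM in H69, with an adjusted p of 0.166, and of 0.0279 with the block. KRT14, which pairs with KRT5 in basal cells, was near 0 in every library. The squamous or basal markers TP63, KRT5, KRT6A, KRT14 and KRT17 summed to 15.9 to 18.2 CPM in H69 sheIF6 cytoplasmic RNA. There KRT6A, KRT14 and KRT17 had 0 counts and KRT5 reached at most 0.0204 CPM, which leaves TP63. In H69M sheIF6 cytoplasmic RNA the sum was 353 to 648 CPM, of which KRT17 alone gave 352 to 647 CPM.

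Per kilobase, the makeup of the keratins can be set side by side. Summed over the 8 keratins the level was 486 to 1029 RPKM in the H69M libraries and 78.6 to 331 RPKM in the H69 libraries. KRT17 made up 23.2% to 51.3% of it in H69M and at most 0.0135% in H69. KRT8 took 22.4% to 36.9% in H69M and 38.4% to 51.9% in H69, and KRT18 took 19.5% to 41.7% in H69M and 26.9% to 40.3% in H69. KRT19 took 0.610% to 4.63% in H69M and 8.86% to 33.4% in H69. The ratio of KRT8 to KRT18 per kilobase was 0.718 to 1.32 in H69M libraries and 1.25 to 1.79 in H69 libraries, ranges that overlap slightly. KRT8 and KRT18 overlap each other on opposite strands, and the count table also lists 12 pseudogenes of KRT8, 16 of KRT18, 3 of KRT17 and 2 of KRT19, which can share reads with them.

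**Figure D2:**
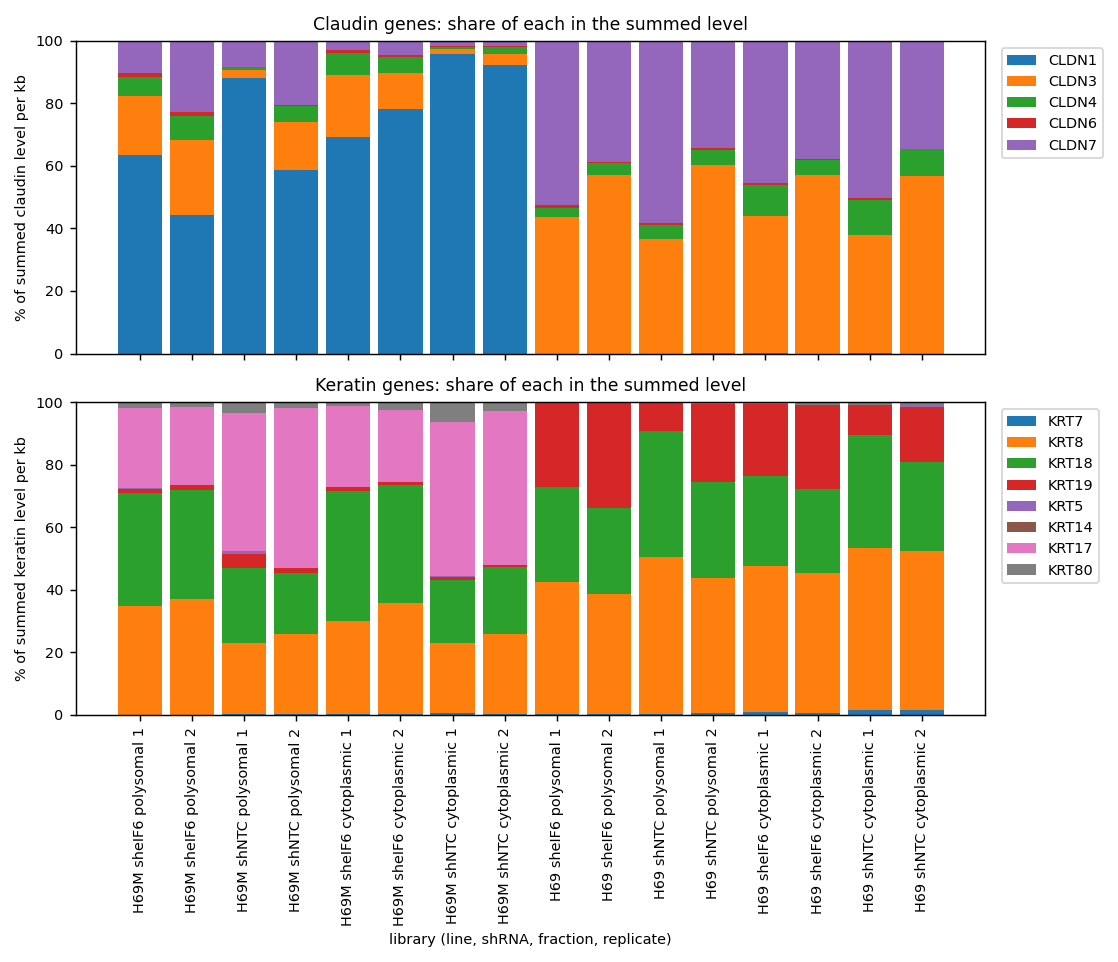
Share of the summed level per kilobase, in percent, that each member of the claudins (top) and of the keratins (bottom) took in each of the 16 libraries, with H69M libraries on the left. CLDN1 fills 44.4% to 95.9% of the claudin bar and KRT17 23.2% to 51.3% of the keratin bar in H69M libraries, and both are below 0.05% in H69 libraries.

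No regulator of the epithelial state was called higher in H69M. ESRP1, a splicing factor that sets the epithelial form of many transcripts, stood at 1.90 and 3.32 CPM in H69M control cytoplasm, against 164 and 142 CPM in H69. In polysomal RNA it stood at 1.77 and 14.2 CPM in H69M, against 186 and 110 CPM in H69, a log2 difference of -4.22 (SE 1.09, adjusted p = 0.0124) that became -6.39 (adjusted p = 0.000149) without the H69M libraries numbered 2. OVOL2, a repressor of mesenchymal genes, stood at 0.250 and 1.19 CPM in H69M control cytoplasm, against 18.9 and 24.9 CPM in H69 (-4.93, SE 1.05, adjusted p = 0.00414; -6.44 without the H69M libraries numbered 2). ELF3, an epithelial ETS factor, stood at 4.62 and 3.38 CPM in H69M, against 21.0 and 50.6 CPM in H69 (-3.16, SE 0.500, adjusted p = 0.000453). ESRP2, the second splicing factor of this family, stood at 0.950 and 0.817 CPM in H69M, against 2.28 and 3.94 CPM in H69 (-1.81, SE 0.494, adjusted p = 0.0144), and its polysomal difference of -1.31 did not pass without the block (adjusted p = 0.0525) and did with it (-1.34, adjusted p = 0.0309). In all, 4 of the 6 regulators were lower in H69M in cytoplasmic RNA and 3 in polysomal RNA. GRHL2 and OVOL1, transcription factors of epithelia, reached no more than 0.555 and 0.527 CPM in any library and were not called. GRHL2 had 34 counts in H69M control polysomal RNA against 2 in H69, a ratio of 16.8 with a counting interval of 4.31 to 144 (edgeR adjusted p = 0.130). OVOL1 had 2 counts in H69M control cytoplasmic RNA against 31 in H69, a ratio of 0.0838 with a counting interval of 0.00972 to 0.329 (adjusted p = 0.105).

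Genes of the protease system and of polarity were lower in H69M or were not called. ST14 (matriptase), a membrane protease of epithelia, stood at 10.6 and 12.5 CPM in H69M control cytoplasm, against 95.7 and 125 CPM in H69 (log2 difference -3.25, SE 0.309, adjusted p = 1.08e-05). SPINT1, its inhibitor, stood at 22.5 and 14.5 CPM in H69M, against 89.3 and 69.4 CPM in H69 (-2.10, SE 0.364, adjusted p = 0.000857), and its polysomal call (-1.36, adjusted p = 0.0105) was lost without the H69M libraries numbered 2 (-1.10, adjusted p = 0.0606). SPINT2, a related inhibitor, stood at 198 and 395 CPM in H69M, against 166 and 203 CPM in H69, and was not called (0.68, adjusted p = 0.170). In polysomal RNA the main test did not call SPINT2 either. Its polysomal difference was -0.84 without the H69M libraries numbered 2. From the sheIF6 libraries SPINT2 was called lower in H69M in polysomal RNA (-1.52, edgeR adjusted p = 0.00608). RAB25, a trafficking GTPase, stood at no more than 0.302 CPM in any H69M library and at 0.254 to 2.19 CPM in the H69 libraries, and CRB3 at no more than 0.101 CPM in H69M and 1.27 CPM in H69. Neither passed by the main test in the control libraries. RAB25 was called lower in H69M cytoplasmic RNA without H69M shNTC cytoplasmic library 2 (adjusted p = 0.0262), which leaves an H69M library with 0 counts. It was also called lower in both fractions without the 4 shNTC libraries numbered 1 in H69 and 2 in H69M (adjusted p = 0.00677 in cytoplasmic and 0.0268 in polysomal RNA). CRB3 had 2 counts against 16 in cytoplasmic RNA, a ratio of 0.162 with a counting interval of 0.0181 to 0.691.

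**Figure D3:**
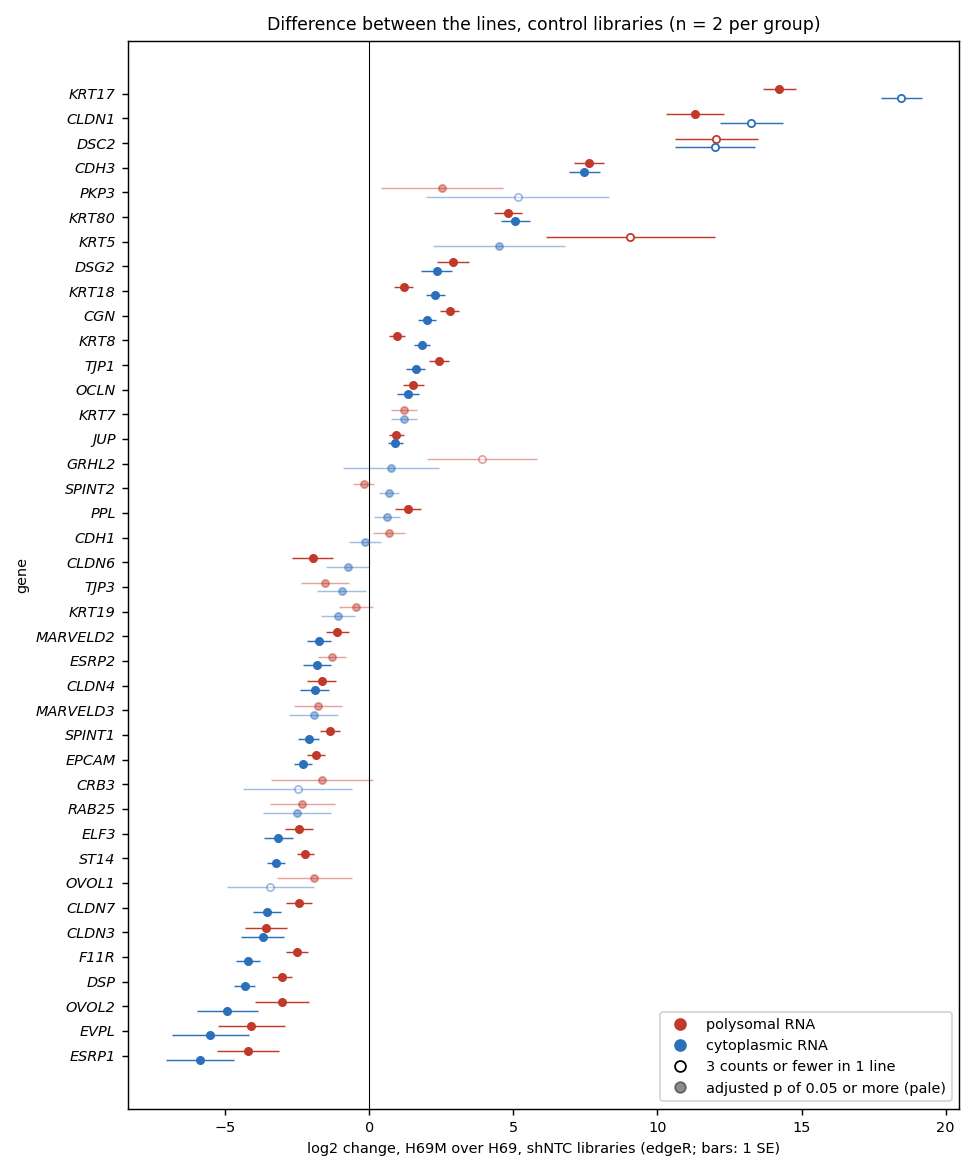
Log2 difference of H69M over H69 in shNTC cells for each tested member, in polysomal (red) and cytoplasmic RNA (blue), with bars of 1 SE. Members are ordered by their cytoplasmic difference. Pale points had an adjusted p of 0.05 or more (edgeR), and open points rest on 3 counts or fewer in a line. Within the cadherins, claudins and desmosomal genes points lie on both sides of 0, and those of the regulators lie below it apart from GRHL2.

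Outside the module, genes of the same structures were called in both directions in control cytoplasmic RNA, except the other desmosomal genes, of which 3 were called higher and 0 lower. Of 14 other adherens junction genes tested, 7 were higher and 3 lower in H69M, among them the mesenchymal cadherins CDH11 (log2 difference 8.42) and CDH2 (4.36), higher, and CTNND2, a neuronal catenin (-2.96), lower. Other tight junction and polarity genes were higher in 5 cases and lower in 10 of 27, with JAM2 at 5.59 and LLGL2 at -4.22. Among the 6 other desmosomal genes tested, the plakophilin PKP2 averaged 49.96 ± 30.4 CPM in H69M and 2.46 ± 0.224 CPM in H69 (SD, n = 2 each; log2 difference 4.34, edgeR), and PKP1 and DSC3 averaged 40.8 and 15.7 CPM in H69M and under 0.1 CPM in H69. Other keratins were higher in 4 cases and lower in 2 of 10, with KRT81, a hair keratin that has near-identical relatives, at 5.86 and KRT15, a basal keratin, at -2.53. Of 11 other regulators 2 were higher and 2 lower, with KLF5 at 2.05 and FOXA1 at -1.80.

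After EIF6 knockdown the members of H69M lay mostly lower, but none passed by the main test. Of 40, 0 were called in either fraction (0.156% and 0.0649% of all genes), and 15 and 18 had an unadjusted p under 0.05, where 11% and 8.15% of all genes did. The median log2 change of the members was -0.47 in cytoplasmic and -1.08 in polysomal RNA. Without overlap, 6 members stood higher and 17 lower in cytoplasmic RNA (20.4% and 19.3% of all genes), and 1 higher and 21 lower in polysomal RNA (15.9% and 16.7%). Libraries of H69M with the same number deviated from their group means together, and with the number as a block 1 member was called higher and 3 lower in cytoplasmic RNA (1.16% of all genes called), and 1 higher and 5 lower in polysomal RNA (0.879%). DESeq2 called 6 and 9 members (2.32% and 1.61% of all genes). The calls depended on the libraries: without the 4 H69M libraries numbered 2, 3 members were lower in cytoplasmic RNA (CLDN1, CLDN7 and KRT80; 2.68% of all genes called), and in polysomal RNA DSP was higher and EPCAM lower (0.705%). Without the 4 shNTC libraries numbered 1 in H69 and 2 in H69M, 2 members were lower in cytoplasmic RNA (1.28% of all genes called), and 1 was higher and 3 lower in polysomal RNA (1.75%).

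DSP was the member called higher with the block, in both fractions. It was at 89.5 and 101 CPM in H69M sheIF6 polysomal RNA, against 24.6 and 41.6 CPM in H69M shNTC, and at 31.3 and 59.4 CPM in sheIF6 cytoplasmic RNA, against 14.1 and 21.3 CPM in shNTC. The groups did not overlap, and the polysomal change of 1.52 (SE 0.334, edgeR adjusted p = 0.164) passed with the block (1.58, adjusted p = 0.0101), as did the cytoplasmic change (1.36, adjusted p = 0.172; 1.32 and 0.0165 with the block). Even so, DSP in H69M sheIF6 cells remained below every H69 library, where it ranged from 261 to 422 CPM.

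The desmosomal cadherin DSG2 stood lower, opposite to DSP. It was at 10.0 and 10.1 CPM in H69M sheIF6 polysomal RNA, against 32.5 and 43.9 CPM in shNTC (log2 change -1.92, SE 0.528, edgeR adjusted p = 0.269; -1.88 and 0.0402 with the block), and its cytoplasmic change was -2.13 (adjusted p = 0.179; -2.16 and 0.0175 with the block). DSC2 stood at 1.97 and 0.848 CPM in sheIF6 polysomal RNA, against 7.49 and 15.0 CPM in shNTC, with log2 changes of -3.00 in polysomal and -3.22 in cytoplasmic RNA that did not pass by edgeR with or without the block and were called by DESeq2 (adjusted p = 0.0146 and 0.00443). CDH1 stood at 2.46 and 3.24 CPM in sheIF6 polysomal RNA, against 8.30 and 9.52 CPM in shNTC (-1.64, adjusted p = 0.452; -1.66 and 0.0407 with the block), and CDH3 at 59.4 and 55.8 CPM, against 218 and 130 CPM (-1.60, adjusted p = 0.209; -1.56 and 0.0314 with the block). Both cadherins were thus lower without overlap, and their cytoplasmic changes were -1.76 and -1.19, of which CDH1 passed with the block (adjusted p = 0.0271) and CDH3 did not (0.0748).

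Of the 12 tight junction genes 0 were called in H69M by the main test, and with the block OCLN was lower in both fractions. OCLN stood at 4.90 and 6.43 CPM in H69M sheIF6 polysomal RNA, against 13.3 and 21.3 CPM in shNTC (log2 change -1.61, SE 0.379, edgeR adjusted p = 0.194; -1.58 and 0.0386 with the block), and its cytoplasmic change was -1.37 (adjusted p = 0.219; -1.42 and 0.0462 with the block). CLDN1 stood at 31.7 and 46.7 CPM in sheIF6 cytoplasmic RNA, against 315 and 125 CPM in shNTC, a log2 change of -2.49 (SE 0.614, edgeR adjusted p = 0.192), and at 39.4 and 26.1 CPM in sheIF6 polysomal RNA, against 192 and 78.4 CPM (-2.05). CLDN1 did not overlap between the groups, and it was called without the H69M libraries numbered 2 in cytoplasmic RNA (-3.30, adjusted p = 0.0485). CLDN3 lay the other way in cytoplasmic RNA, at 3.16 and 2.41 CPM in H69M sheIF6 cells, against 1.55 and 1.63 CPM in shNTC, and F11R did so too; neither passed with or without the block.

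Among the members of other roles, the protease ST14 stood at 21.0 and 26.4 CPM in sheIF6 polysomal RNA, against 39.1 and 71.0 CPM in shNTC (-1.22, adjusted p = 0.194; -1.19 and 0.0447 with the block). PKP3 had 0 counts in sheIF6 polysomal RNA against 35 in shNTC, at least 12.9-fold lower with 3 counts over the group, of which shNTC library 2 gave most.

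The keratins were not alike under knockdown in H69M. KRT17 stood at 515 and 738 CPM in sheIF6 polysomal RNA, against 1415 and 1635 CPM in shNTC (log2 change -1.28), and KRT7 at 1.58 and 2.45 CPM, against 9.94 and 5.77 CPM (-1.96). KRT80 stood at 51.4 and 58.9 CPM in sheIF6 polysomal RNA, against 163 and 79.0 CPM in shNTC (-1.13). Each of these 3 did not overlap between groups, and none passed by the main test. KRT80 was called lower by edgeR without the 4 shNTC libraries numbered 1 in H69 and 2 in H69M (-1.56, adjusted p = 0.0202, in polysomal RNA and -1.88, adjusted p = 0.0113, in cytoplasmic RNA). KRT18 stood at 1071 and 592 CPM in sheIF6 cytoplasmic RNA, against 417 and 414 CPM in shNTC, a change of 1.00 in the other direction that did not pass either. In polysomal RNA KRT18 overlapped, at 737 and 1058 CPM in sheIF6 and 796 and 639.6 CPM in shNTC. DESeq2 called KRT7 lower in both fractions and KRT17 in polysomal RNA.

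EIF6 knockdown in H69 gave no called member by the main test either. None of 40 was called in cytoplasmic or in polysomal RNA (edgeR; 0% and 0.00433% of all genes were called), nor with the replicate block (0.00433% and 0.108%), and 4 and 3 members had an unadjusted p under 0.05 (3.01% and 4.14% of all genes). DESeq2 called 1 member in each fraction, DSG2, where it called 0.369% and 0.5% of all genes. DSG2 stood at 34.0 and 26.5 CPM in H69 sheIF6 cytoplasmic RNA, against 7.03 and 7.26 CPM in H69 shNTC. In polysomal RNA it stood at 33.1 and 11.7 CPM in sheIF6, against 6.89 and 3.42 CPM in shNTC. In both fractions the groups did not overlap, and the log2 changes were 2.08 (SE 0.531, edgeR adjusted p = 0.631; 0.105 with the block) and 2.12 (SE 0.535, adjusted p = 0.493; 0.0822 with the block). Without overlap, 9 members stood higher and 2 lower in sheIF6 cytoplasmic RNA (16.7% and 17.6% of all genes) and likewise 9 and 2 in polysomal RNA (11.4% and 11.3%). Among the higher ones were the regulators ELF3, with log2 changes of 1.02 and 1.05, and ESRP2, with 1.09 and 1.26, in cytoplasmic and polysomal RNA; neither passed after adjustment. ELF3 stood at 142 and 159 CPM in sheIF6 polysomal RNA, against 47.7 and 97.1 CPM in shNTC. The members' median log2 change was 0.08 in cytoplasmic and 0.14 in polysomal RNA.

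**Figure D4:**
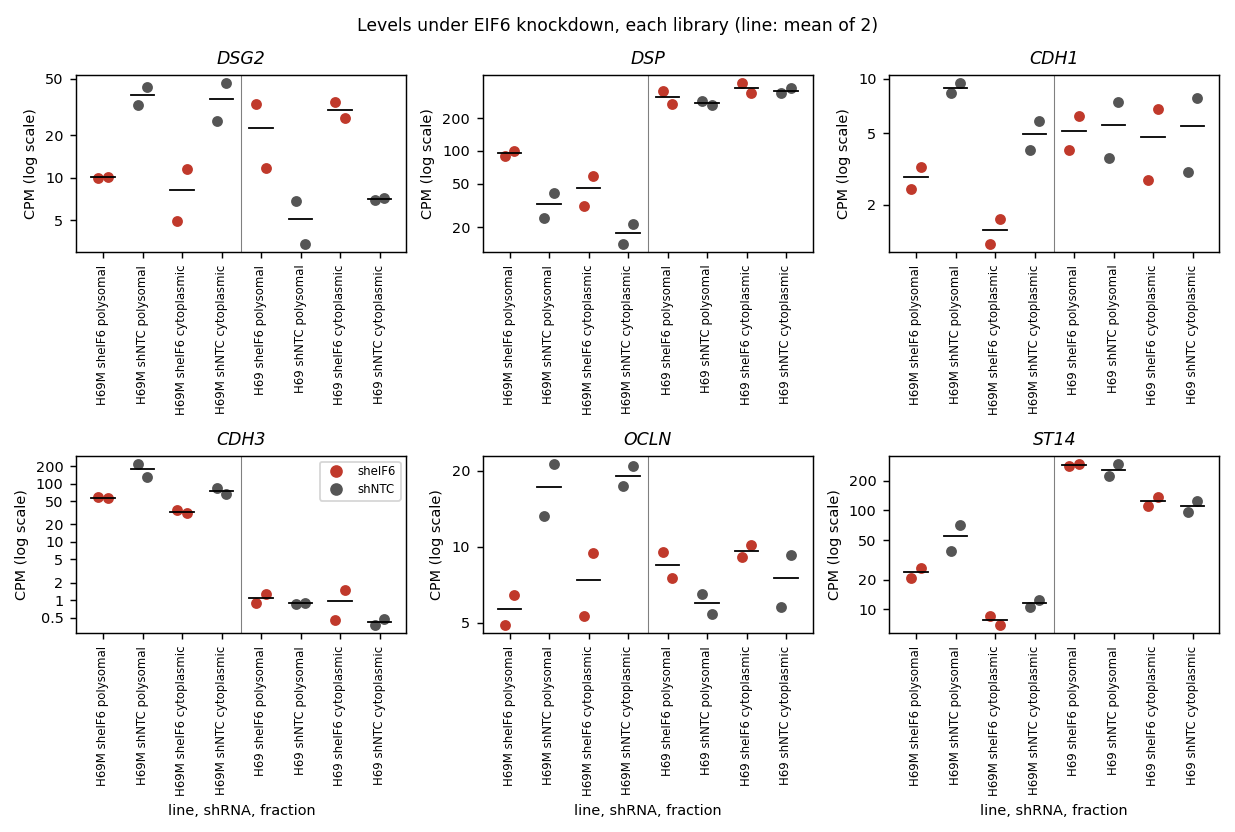
Level of DSG2, DSP, CDH1, CDH3, OCLN and ST14 in each library, in CPM on log axes, by line, shRNA and fraction, with sheIF6 in red and shNTC in grey and a line at the mean of 2 libraries. DSG2 lies lower in H69M sheIF6 than in H69M shNTC libraries and higher in H69 sheIF6 than in H69 shNTC libraries, in both fractions; DSP lies higher in H69M sheIF6 libraries.

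No knockdown change was called as different between polysomal and cytoplasmic RNA. The change on polysomes minus the change in cytoplasm was called for 0 of 40 members in H69M and in H69 (edgeR, with or without the block, and DESeq2), and of all genes edgeR called 0% in each line and DESeq2 0.00253% in H69M and 0.00759% in H69. In H69M 3 members had an unadjusted p under 0.05 (1.7% of all genes): EPCAM with -1.08, F11R with -1.42 and SPINT1 with -1.11, each lower on polysomes, and the median difference was -0.26 on the log2 scale. In H69, 0 members had one (1.66% of all genes), and the median was 0.01. F11R stood at 30.8 and 47.7 CPM in H69M sheIF6 polysomal RNA, against 40.3 and 87.2 CPM in shNTC, and at 18.1 and 17.6 CPM in sheIF6 cytoplasmic RNA, against 11.1 and 10.5 CPM in shNTC. In H69M control libraries these 3 genes were also among those with more polysomal RNA. The H69M libraries numbered 2 held RNA of genes typical of H69, as given above, from a source that is not known. F11R, EPCAM and SPINT1 were higher in H69 than in H69M control libraries. The part of that RNA in these changes was not tested.

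Between the lines, DSG2 was the member whose knockdown change was set apart by the block and by DESeq2, in both fractions. The change in H69M minus the change in H69 was -4.21 in cytoplasmic RNA (SE 0.751, edgeR adjusted p = 0.142) and -4.04 in polysomal RNA (SE 0.752, adjusted p = 0.187). With the block both passed (-4.19, adjusted p = 0.0123, and -3.95, adjusted p = 0.0269), as they did in DESeq2 (adjusted p = 0.000116 and 0.000217; 0.471% and 0.544% of all genes called). No member was called by the main test (0.0303% and 0.00433% of all genes), DSG2 was the only member called with the block (0.139% and 0.16%), and 7 and 13 members had an unadjusted p under 0.05 (4.93% and 5.09%). DESeq2 called OCLN as well in polysomal RNA (-2.11, adjusted p = 0.0343). The line difference in DSG2 had the opposite sign in sheIF6 cells: there it stood at 4.94 and 11.6 CPM in H69M cytoplasmic RNA, against 34.0 and 26.5 CPM in H69. The median difference of the members was -0.70 in cytoplasmic and -1.07 in polysomal RNA.

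Other genes of these structures gave no call under knockdown in either line and fraction by the main test. With the block PKP2 was higher in H69 polysomal RNA (2.12, adjusted p = 0.0409), CGNL1, a paralogue of cingulin, was higher in H69M in cytoplasmic (1.38, adjusted p = 0.0278) and polysomal RNA (1.83, adjusted p = 0.0111), and LSR, a protein of tricellular junctions, was higher in H69M cytoplasmic RNA (1.37, adjusted p = 0.0187). They are 2 of the 27 other tight junction and polarity genes tested and 1 of the 6 other desmosomal genes.

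Members called between fractions of control cells were all higher in polysomal than in cytoplasmic RNA. In H69M, 6 of 40 were called higher and 0 lower (4.7% of all genes called, 2.16% higher), and in H69 5 were higher and 0 lower (11.8% called, 6.63% higher).

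In H69M the members higher on polysomes were F11R (log2 difference 2.56, adjusted p = 0.00555), KRT19 (2.57, adjusted p = 0.0368), CLDN7 (2.46, adjusted p = 0.0141), ST14 (2.25, adjusted p = 0.00407), SPINT1 (1.81, adjusted p = 0.0176) and EPCAM (1.35, adjusted p = 0.0265). F11R stood at 40.3 and 87.2 CPM in H69M shNTC polysomal RNA, against 11.1 and 10.5 CPM in cytoplasmic RNA. Apart from KRT19 these are genes that were called lower in H69M than in H69. The shNTC polysomal library numbered 2 held the most RNA of genes typical of H69, and its part in these calls was not tested. Leaving out the H69M libraries numbered 2 leaves 1 library in each H69M group, too few to compare the calls. The log2 difference was then 1.86 for F11R, 2.82 for KRT19, 1.65 for CLDN7, 1.88 for ST14, 1.79 for SPINT1 and 1.02 for EPCAM. With the block 11 members were higher in H69M and 7 in H69 (11.1% and 18.9% of all genes called); the count in H69M was 1 without H69M shNTC cytoplasmic library 2 and 3 without polysomal library 1. DESeq2 called 10 members higher and 0 lower in each line (15.2% of all genes called in H69M and 19.4% in H69). Without the 4 shNTC libraries numbered 1 in H69 and 2 in H69M, which leaves 1 library a group, edgeR called 0 members in either line (0% and 0.00818% of all genes). In H69, 9 were called without the H69M libraries numbered 2 (15.3%).

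Of the H69 calls, KRT8 stood at 1063 and 701 CPM in H69 shNTC polysomal RNA, against 302 and 276 CPM in cytoplasmic RNA (log2 difference 1.61, SE 0.286, adjusted p = 0.00523). KRT18 stood at 398 and 233 CPM in polysomal RNA, against 97.7 and 72.1 CPM in cytoplasmic RNA (1.89, adjusted p = 0.00550), so the simple keratin pair shared the direction. ST14 stood at 220.1 and 294 CPM in H69 polysomal RNA, against 95.7 and 125 CPM in cytoplasmic RNA (1.22, adjusted p = 0.0159), and SPINT2 at 467 and 604 CPM, against 166 and 203 CPM (1.54, adjusted p = 0.0167). The fifth call was KRT17, with 6 counts in polysomal against 0 in cytoplasmic RNA, at least 2.58-fold higher (adjusted p = 0.0433; 0.0686 with the block). The KRT8 call was lost without either cytoplasmic control library (adjusted p = 0.0530 and 0.0576), and the count fell to 0 without H69 shNTC cytoplasmic library 2, to 1 without library 1 and to 2 without polysomal library 2.

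Without overlap, 20 members stood higher and 0 lower in H69M polysomal RNA (20.8% and 24.5% of all genes), and 15 higher and 4 lower in H69 (23% and 32.3%). The median difference of the members was 0.90 in H69M and 0.63 in H69, where the median of all genes was 0 and -0.14 after TMM scaling, and -0.25 and -0.49 when scaled by library totals alone. Whether the lines differ in this was tested as the polysomal difference in H69M minus that in H69: 0 of 40 members were called (0% of all genes), and the median was 0.53.

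**Figure D5:**
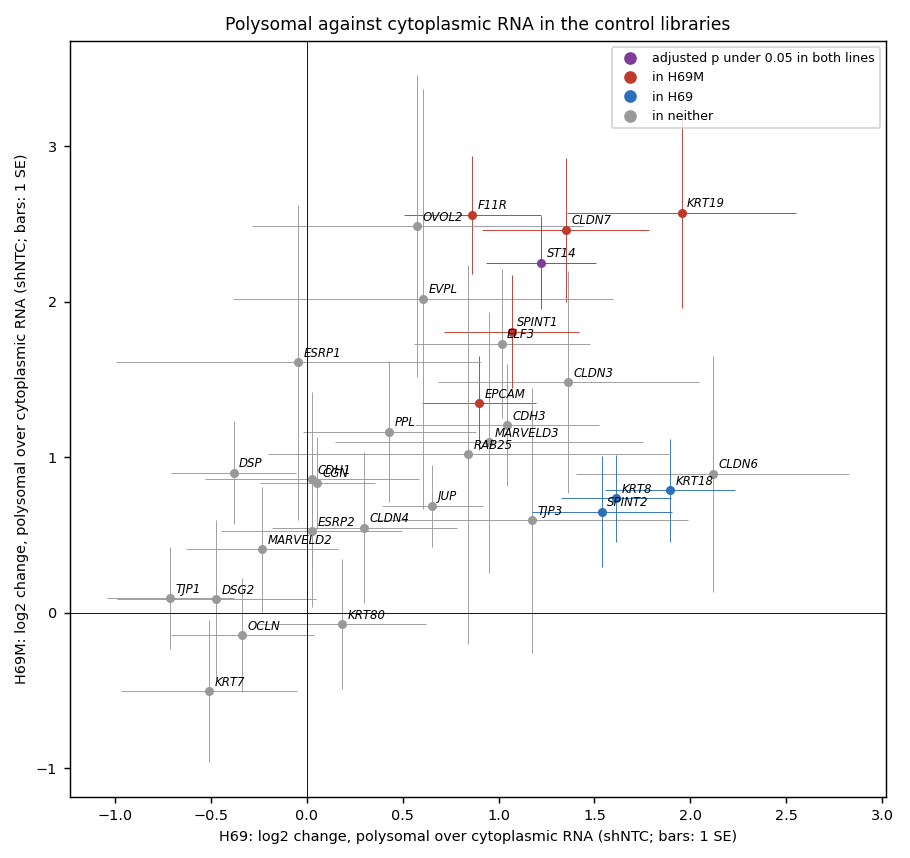
Log2 difference of polysomal over cytoplasmic RNA in shNTC cells of H69M (vertical) against H69 (horizontal) for 32 tested members, with bars of 1 SE and colours by the line in which the difference was called. Members with 3 counts or fewer in any of the groups compared are not drawn, among them KRT17, which was called in H69. Called members lie above 0 in the line of their call, KRT8 at 1.61 and KRT18 at 1.89 in H69, and F11R at 2.56 and CLDN7 at 2.46 in H69M; ST14 was called in both.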

How the data were processed

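The deposited table holds the authors' raw read counts per gene for 16 libraries; per the submitters' processing notes they used STAR, HTSeq and GRCh38/hg38, with versions and strand setting not given in the sources used here. Counts were tested in R 4.3.3 with edgeR 4.0.16: genes kept by filterByExpr (minimum count 10; 23100 of 56832), TMM scaling, a quasi-likelihood fit with robust dispersion and a mean for each of the 8 groups, and Benjamini-Hochberg adjustment over all genes tested (limit 0.05). CPM use TMM-scaled totals, SE is on the log2 scale, and RPKM divides by the merged exons of GENCODE v29 (41 of 41 members matched by name). Members, gene lists and named genes were chosen with earlier results of these data known; all members are accounted for, and other genes named are the largest called changes of their list or those its biology is known by. Libraries with the same number deviated together within each line (over 6 pairs of groups, r was 0.172 to 0.578 in H69M; in H69, 0.168 to 0.280) and not between lines (-0.107 to 0.0457, 16 pairs), so a fit with the number as a block within each line stands beside results it changes. The pairing comes from the data, not the labels. Alternatives were RLE and library-total scaling, no filter and a filter of 50 counts in 2 libraries, DESeq2 1.42.0, the block, leaving out the 4 shNTC libraries numbered 1 in H69 and 2 in H69M (of which H69 shNTC polysomal library 1 did not stand apart), the line difference from sheIF6 libraries, and leaving out each library; leaving out the 4 H69M libraries numbered 2 was chosen after seeing the data. A group left with 1 library took its spread from the pooled fit, which assumes that this library varies as the others do. Tested on simulated data, 50 genes per fold, the fit called 21 at 4-fold and 41 at 8-fold for the H69M cytoplasmic knockdown, and 25 and 33 for H69; at 2-fold it called 0 and 1. No pair of replicate libraries agreed within counting noise. Opposite-strand genes overlap 25 of the 41 members, and their reads cannot be told apart.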

Additional observations from a re-analysis of the deposited data

Results flagged for a closer look

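For these members every sheIF6 library of H69M lay on the lower side of its shNTC libraries and every sheIF6 library of H69 on the upper side. In cytoplasmic RNA 3 of 40 members did so, and in polysomal RNA 5 of 40. Of all genes, 4.16% and 2.95% went opposite ways without overlap, counting both this pattern and its reverse. The tested difference, knockdown change in H69M minus that in H69 on the log2 scale, was -4.21 for DSG2, -1.39 for ELF3 and -1.92 for ESRP2 in cytoplasmic RNA. In polysomal RNA it was -4.04 for DSG2, -2.07 for ELF3, -2.11 for OCLN, -1.61 for CLDN7 and -6.91 for KRT5, the last from counts near 0 in H69 (SE 3.501). None passed by edgeR (adjusted p = 0.142 for DSG2 in cytoplasmic RNA, 0.187 in polysomal RNA, and 0.462 to 1.00 for the others). With the replicate block DSG2 passed in both fractions (adjusted p = 0.0123 and 0.0269), and OCLN had an adjusted p of 0.0998. H69M libraries numbered 2 held RNA of genes typical of H69, counted with members left out, and its part in these differences was not tested. In H69M shNTC cytoplasmic RNA, ELF3 and ESRP2 stood lower in library 2 (3.38 and 0.817 CPM) than in library 1 (4.62 and 0.950 CPM). DSG2 stood higher there in library 2 (46.9 against 25.1 CPM). In H69M shNTC polysomal RNA, CLDN7 (18.6 against 12.3 CPM), OCLN (21.3 against 13.3 CPM) and DSG2 (43.9 against 32.5 CPM) were higher in library 2. ELF3 (10.9 against 15.6 CPM) and KRT5 (2.87 against 40.7 CPM) were lower in it.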

How the results depend on the processing

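When each library was left out in turn, 21 to 26 members were called between the lines in cytoplasmic RNA (26 with all libraries) and 17 to 27 in polysomal RNA (28), lowest without H69M shNTC cytoplasmic library 1 and H69M shNTC polysomal library 1. Knockdown counts stayed at 0 in those fits. In cytoplasmic and polysomal RNA, DESeq2 called 6 and 9 members in H69M, and 1 and 1 in H69. With the replicate block the H69M counts were 4 and 6. Without the 4 shNTC libraries numbered 1 in H69 and 2 in H69M they were 2 and 4, where 312 and 429 of all genes were called (36 and 15 with all libraries), and without the 4 H69M libraries numbered 2 they were 3 and 2. The knockdown change of H69M minus that of H69 gave 1 member in cytoplasmic RNA by DESeq2 and with the block, and in polysomal RNA 2 by DESeq2 and 1 with the block. In H69M the 6 calls of polysomal against cytoplasmic control RNA became 10 by DESeq2, 11 with the block, 0 without the 4 shNTC libraries, 0 without the libraries numbered 2, and 1 to 7 with single libraries left out. In H69 the 5 calls became 10 by DESeq2, 0 without the 4 shNTC libraries, 9 without the H69M libraries numbered 2, and 0 to 6 with single libraries left out. Taken from sheIF6 libraries, the line difference was reversed for DSG2 (-1.88 in cytoplasmic and -1.15 in polysomal RNA) and OCLN (-0.39 and -0.59). Members not called by the main test were called lower in H69M from those libraries. They were CDH1 (-1.73, edgeR adjusted p = 0.0370), CRB3 and KRT19 in cytoplasmic RNA. In polysomal RNA they were CRB3, ESRP2, KRT19, MARVELD3, RAB25 and SPINT2. CRB3 had 0 counts in the H69M sheIF6 libraries. The cause of these changes was not tested. Scaling by library totals moved the median of all genes from -0.01 to -0.14 in the cytoplasmic line difference. Single calls were followed only for members called by the main test or with the block. Of 1040 values called by the main test, 928 kept their call with a library left out and 112 lost it. Of 400 values called only with the block, 15 gained a call in this way. Under the other alternatives, of 573 values called by the main test 515 kept the call, 54 lost it and 4 reversed. Of 205 values called only with the block 59 gained one, the block being itself among these alternatives. In simulated data for the cytoplasmic knockdown comparisons, the fit called 0 of 50 2-fold changes in H69M and 1 of 50 in H69.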
